A study of Bos taurus with 6 samples.

Results

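The loci described here are stretches of the cattle genome that yielded spliced or unspliced RNA in these testis libraries but lie outside every Ensembl gene. They were assembled from the sequencing reads and carry identifiers beginning with XLOC. A locus was included when its span on the chromosome shared no base with any Ensembl gene of the same table, on either strand. This rule gave 14540 loci, which were 30.8% of the 47249 entries in the table of genes. The other assembled loci, 5102 in number, overlapped an Ensembl gene. The study describes the libraries as testes of Wandong cattle. They came from 3 calves of about 3 months, before maturity, and 3 mature bulls of about 3 years. All animals were untreated, with 1 library per animal and with ribosomal RNA removed. Levels are given as FPKM, that is fragments scaled by the length of the transcript and by the size of the library. The tables hold no read counts, but low values still step by the worth of a single fragment. From these steps the library size behind the FPKM scale was 0.976, 0.765 and 0.551 in calves 1 to 3 and 1.05 and 0.819 in bull 1 and bull 3, all relative to bull 2, and this need not follow the number of reads sequenced.

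Genomes are transcribed beyond their annotated genes, and transcripts from such regions include long non-coding RNAs, unannotated protein-coding genes, extensions of neighbouring genes and transcribed repeats. The adult testis is known for an unusually wide transcription of the genome, above all in meiotic spermatocytes and in round spermatids. These cells arise at puberty, so that a calf testis at 3 months holds mainly Sertoli cells, Leydig cells, peritubular cells and early germ cells.

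Markers of the testis were examined before the loci, and the library labelled calf 3 went against its label. The 7 Sertoli cell markers summed to an FPKM of 2811 in calf 1 and 2678 in calf 2 but 437 in calf 3, where 423 came from CLU, a gene of many tissues, and FSHR, WT1 and GATA4 were listed at 0. The 5 Leydig cell markers summed to 1388, 1128 and 0.449 in the same order. All 8 markers of oligodendrocytes, astrocytes and neurons were highest in calf 3, with a sum of 13675 there against 9.74 to 13.7 in the other 5 libraries. The main counts and calls are therefore given with and without calf 3. The other comparisons, among them those by distance, chromosome, group and feature, include calf 3 unless stated. In bulls, the 5 markers of elongated spermatids summed to 13291 to 15152 and the 5 of round spermatids to 298 to 354, against 0.572 to 0.792 and 2.87 to 5.74 in the calves.

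Most loci were weakly expressed. Their spans on the genome ran from 223 to 826586 bases, with a median of 6893 and quartiles of 2556 and 19135. A single assembled transcript was listed for 9636 loci (66.3%), and the largest number for 1 locus was 66. The table of transcripts gives a name beginning with LINC to at least 1 transcript of 12909 loci (88.8%). An FPKM of 1 was reached in no library by 10402 loci, in 1 or 2 libraries by 2330 and in 3 or more by 1808. Every locus was above 0 in at least 1 library. The spans of 5637 loci (38.8%) overlapped that of another such locus, so that reads could be divided between them.

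Far more of these loci were detected in bulls than in calves. Calves 1 to 3 had 299, 354 and 480 loci with an FPKM of 1 or more, and bulls 1 to 3 had 2318, 2592 and 2954. Calf 1 and bull 2, in which a single fragment was worth nearly the same FPKM, had 299 and 2592. The part of library size in the difference was not tested. Every bull lay above every calf, and the means of 378 ± 92.8 for calves and 2621 ± 319 for bulls (± SD, n = 3 each) stood in a 6.94-fold ratio. The exact permutation test over the 6 libraries gave p = 0.1 (two-sided), the smallest p that 3 animals against 3 allow. Without calf 3 the difference of the means, 2244 loci with all libraries, was 2295. Ensembl genes at the same level averaged 13605 ± 132 for calves against 14280 ± 166 for bulls (± SD, n = 3 each), a 1.05-fold ratio. The loci were assembled from the reads of these libraries, whereas Ensembl genes come from an annotation. A locus could enter through the bulls alone, so that these ratios are not on equal terms. The assembled loci that overlap an Ensembl gene were also more often detected in bulls, with means of 646 ± 121 for calves and 1540 ± 87.5 for bulls (± SD, n = 3 each), a 2.38-fold ratio with p = 0.1 in the same exact permutation test. At a floor of 0.1 the loci numbered 2562 to 3212 in the calves and 9271 to 10218 in the bulls, and at a floor of 5 they numbered 58 to 82 and 522 to 720. In bulk tissue, fewer cells of a type and less RNA per cell cannot be told apart. The spermatid markers above were higher in the same group, and their part in this difference was not tested.

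**Figure D1:**
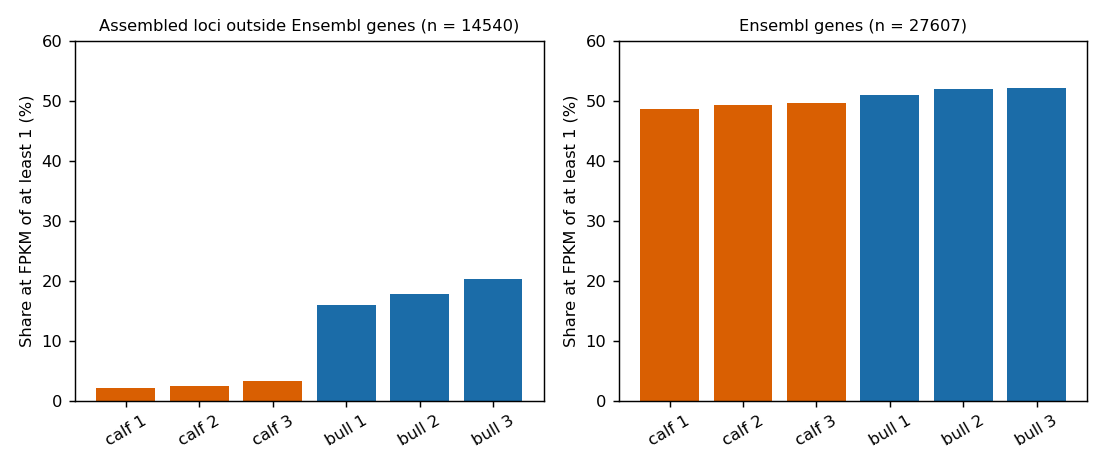
Share of features with an FPKM of at least 1 in each library (vertical axes, %), for the 14540 loci outside Ensembl genes (left) and for the 27607 Ensembl genes (right), with calves in orange and bulls in blue. The loci lie between 2.06% and 3.30% in calves and between 15.9% and 20.3% in bulls, whereas Ensembl genes lie between 48.8% and 52.2% in all libraries.

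The loci also held a larger part of the measured RNA in bulls. Their share of the summed FPKM was 0.246%, 0.363% and 0.569% in calves 1 to 3, and 2.06%, 2.53% and 2.81% in bulls 1 to 3. Again no bull overlapped a calf, with p = 0.1 in the same exact permutation test. The difference of the means was 2.077 percentage points, and 2.165 without calf 3. A locus could enter through the bulls alone, so that the test is not independent of how the loci were found. The assembled loci that overlap an Ensembl gene held on average 1.64% in calves and 2.30% in bulls (p = 0.3 by exact permutation). Families of small structured RNA, which carry symbols starting with RF, take a different part of the sum in each library. With these left out of the total, the share was 0.751% to 1.12% in calves and 3.72% to 4.83% in bulls.

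The libraries in which a locus was detected were counted next. All bulls and no calf reached an FPKM of 1 at 1536 loci (10.6% of the loci), against 7.56% of all entries in the table. A further 712 loci (4.90%) reached it in 2 bulls alone and 1118 (7.69%) in a single bull. Of the latter, 593 were in bull 3, 317 in bull 2 and 208 in bull 1. Among Ensembl genes, 220 (0.797%) reached this level in 2 bulls alone and 303 (1.10%) in a single bull alone. Detection in all 6 libraries was found for 63 loci (0.433%) and for 10604 Ensembl genes (38.4%). Both calf 1 and calf 2 and no other library reached an FPKM of 1 at 51 loci (0.351%, against 1.34% of Ensembl genes). Calf 3 alone reached it at 298 (2.05%, against 3.56% of Ensembl genes).

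The comparison of bulls with calves asks which of these loci change with sexual maturity. It used log2(FPKM + 1), a limma model over the whole table and p-values adjusted by Benjamini-Hochberg over all 18115 features that passed a filter, namely 1 FPKM or more in 3 or more libraries. Features were called when the adjusted p was under 0.05 and the log2 fold change was 1 or more in size. Of the 1808 loci that passed the filter, 1570 (86.8%) were called higher in bulls, against 35.7% of all features tested and 27.3% of the Ensembl genes tested, and 18 (0.996%) were called lower, against 9.61% and 11.2%. The median log2 fold change was 1.85 over these loci and 0.43 over all features tested. With a pseudocount of 0.1 these medians were 4.41 and 0.56, and with quantile normalization they were 1.48 and -0.13, a change of sign for all features. Without calf 3, 1592 loci were called higher and 29 lower (37.9% and 13.6% of all features tested), and 1557 and 13 of them were called the same way with all libraries. The count called lower was also 9 without bull 1 and 11 without bull 2, whereas that called higher stayed between 1537 and 1592 whichever library was left out.

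These shares cannot be read as a property of the loci, because 1536 of the 1808 loci (85.0%) passed the filter only through the bulls, where 3 libraries suffice, whereas 1302 of 14957 Ensembl genes (8.70%) did so. Of those 1536 loci, 1509 were called higher. The same model was then fitted with no filter to all features above 0. Of the 14540 loci, 2030 (14.0%) were called higher in bulls, against 15.6% of all features, and 18 (0.124%) were called lower, against 3.54%. A feature under an FPKM of 1 in every library cannot reach a log2 fold change of 1 on this scale. That held for 10402 of the loci, so that these shares depend on their level. In this fit the median log2 fold change was 0.24 over the loci and 0.12 over all features. Among the 254 loci that passed the filter and reached an FPKM of 1 in at least 1 calf and 1 bull, 61 in the filtered fit (24.0%) were called higher and 15 (5.91%) lower, whereas the shares were 22.0% and 10.1% among the 13083 Ensembl genes chosen in the same way. Counted without a model over all loci, the values of the 3 bulls lay above those of the 3 calves at 7408 loci (50.9%, against 35.6% of all entries) and below them at 560 (3.85%, against 13.4%). Without calf 3 these counts were 7811 (53.7%, against 40.5%) and 1222 (8.40%, against 21.8%). These shares are not on equal terms either. A locus could be assembled from the reads of the bulls alone, and the loci are themselves part of all entries.

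**Figure D2:**
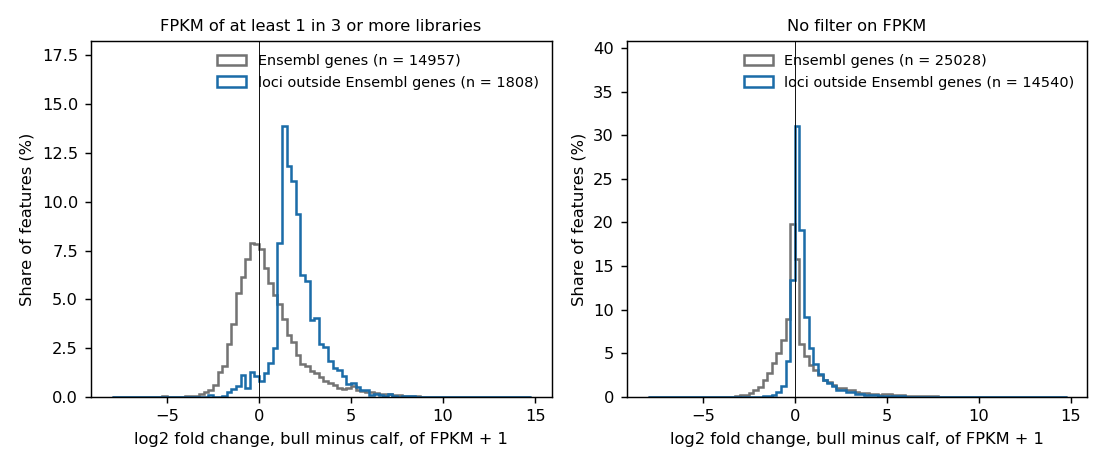
Distribution of the log2 fold change of bulls against calves on the log2(FPKM + 1) scale (horizontal axes), as the share of features in each bin (vertical axes, %), for loci outside Ensembl genes (blue) and Ensembl genes (grey). With the filter on FPKM (left) the 1808 loci centre at 1.85, and with no filter (right) the 14540 loci centre at 0.24.

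Loci called higher in bulls were mostly of modest level. Their bull means had a median FPKM of 3.49 with a lower quartile of 2.1 and an upper quartile of 7.0, and the quartiles of their log2 fold changes were 1.53 and 2.77. Listed at 0 in every calf were 529 of the 1570. A bull mean of at least 10 was reached by 288 loci, of at least 50 by 36 and of at least 100 by 13, whereas 28, 3 and 3 loci reached these means over calf 1 and calf 2. These levels and the values of 0 were not counted over all features. Because a locus could enter through the bulls alone, they cannot be read as a property of the loci.

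The largest increases among the loci called, taken from those whose groups did not overlap, were XLOC_255803, XLOC_255047, XLOC_186606, XLOC_071419, XLOC_254586, XLOC_224768, XLOC_255061 and XLOC_254017, and 5 of these 8 lie on scaffolds that are not placed on a chromosome. XLOC_255803 (scaffold NKLS02002210.1, 401850 to 412243) was at FPKM values of 0, 0.0478 and 0 in calves 1 to 3 and of 182, 521 and 474 in bulls 1 to 3. The calves were at or near 0 and bull 1 was well under the other bulls. Its log2 fold change was 8.46 (SE 0.41, adjusted p = 2.37e-05 by limma).

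XLOC_255047 and XLOC_255061 share another scaffold, NKLS02002063.1, from 2311 to 6552 and from 15512 to 27182. The FPKM of XLOC_255047 was 0.567, 0.126 and 0 in the calves and 340.3, 369.6 and 382 in the bulls, with a log2 fold change of 8.24 (SE 0.21, adjusted p = 3.36e-06 by limma). At XLOC_255061 the calves were at 0.0273, 0 and 0 and the bulls at 66.5, 192 and 169, again with bull 1 lowest, and the log2 fold change was 7.01 (SE 0.41, adjusted p = 4.60e-05 by limma). The nearest Ensembl gene of both, ENSBTAG00000054522, reached at most 0.298 in any library. XLOC_254586 (NKLS02001731.1, 6226 to 9805) and XLOC_254017 (NKLS02001289.1, 5001 to 104704) lie on scaffolds with no Ensembl gene in the table. Their bull values were 171, 129 and 149.7 for the former and 119, 139 and 123 for the latter, and no calf exceeded 0.391 at either.

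XLOC_186606 lies on chromosome 4 from 106251260 to 106252733, with 1 assembled transcript, and its edge is 79 bases from that of KEL, which encodes the Kell blood group protein. Its FPKM was 0, 0.0758 and 0.0799 in calves 1 to 3 and 264, 214 and 288 in the bulls. All bulls lay far above all calves, with a log2 fold change of 7.92 (SE 0.17, adjusted p = 2.68e-06 by limma). KEL itself reached at most 0.139 in any library, so the signal of the locus was not shared by its closest annotated neighbour. The RefSeq annotation of a later assembly, ARS-UCD2.0, used here for names and gene order only, holds 1 gene between TRPV5 and KEL whose symbol is not in the table, the protein-coding LLCFC1, known as a sperm protein needed for fusion with the egg.

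XLOC_071419 (chromosome 15, 83907127 to 83934015) was at FPKM values of 0.375, 0.636 and 0 in the calves and 236, 205 and 188 in the bulls. It carries 6 assembled transcripts and lies 122873 bases from the nearest Ensembl gene. XLOC_224768 (chromosome 7, 40319024 to 40322527) was at 0.0351, 0.0478 and 0 in the calves and at 119.7, 146 and 142 in the bulls. It lies 4416 bases from TRIM7, a ubiquitin ligase gene that was highest in calf 3 (2.57) and between 0.170 and 0.622 elsewhere. At both loci the bulls were close together and the calves were near 0, with log2 fold changes of 7.32 and 7.05 (adjusted p = 5.58e-06 and 2.72e-06 by limma).

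The loci called lower in bulls were few, and the values of calf 3 moved their fold changes. The 6 largest decreases were XLOC_209486, XLOC_010050, XLOC_008634, XLOC_256542, XLOC_214584 and XLOC_004631. XLOC_209486 (chromosome 6, 92327835 to 92346614) was at FPKM values of 112, 189 and 40.1 in the calves and 14.6, 12.9 and 15.4 in the bulls. It was lowest among calves in calf 3, and its log2 fold change of -2.65 (SE 0.55, adjusted p = 0.00752 by limma) became -3.26 without that library. XLOC_214584 overlaps it almost wholly (92327484 to 92346612) at a lower level, with 4.43, 8.77 and 1.93 in the calves and 0.671, 0.794 and 1.03 in the bulls, and its log2 fold change was -1.56 (adjusted p = 0.0240 by limma). The nearest Ensembl gene of the pair is CXCL13, a chemokine of lymphoid tissue, which reached 1.74 in bull 1 and at most 0.212 elsewhere. RefSeq places 1 further entry between CXCL13 and CNOT6L, the pseudogene LOC100300832.

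XLOC_256542 (chromosome X, 18782960 to 18784184) was at 11.2, 14.3 and 17.3 in the calves and at 4.32, 3.21 and 4.19 in the bulls, a log2 fold change of -1.63 (SE 0.22, adjusted p = 0.00115 by limma). XLOC_004631 (chromosome 1, 92599175 to 92661674), in the interval between the synaptic adhesion gene NLGN1 and NAALADL2, was at 16.4, 20.0 and 36.9 against 7.84, 6.57 and 7.58. XLOC_010050 (chromosome 1, 59148618 to 59815200), between ZBTB20 and GAP43, was at 3.08, 3.95 and 10.6 against 0.590, 1.09 and 0.760. Both were highest in calf 3, and their log2 fold changes of -1.53 and -1.78 were -1.20 and -1.32 without it. XLOC_008634, the locus with the widest span (chromosome 1, 26585974 to 27412559), lies 320398 bases from ROBO1, which encodes a receptor of axon and cell guidance. It was at 7.84, 12.4 and 2.63 in the calves and 1.42, 1.22 and 1.14 in the bulls (log2 fold change -1.74, adjusted p = 0.0227 by limma), and ROBO1 was called lower as well (-1.40), with 19.5, 19.2 and 10.3 against 4.73, 6.93 and 4.58. The calls of XLOC_008634 and XLOC_214584 were lost without calf 1 or without any bull (adjusted p of 0.0670 to 0.0775 and 0.0620 to 0.0839), and that of XLOC_010050 without bull 1 (adjusted p = 0.0520 by limma). With libraries rescaled to the same total, XLOC_010050 and XLOC_004631 were no longer called (adjusted p = 0.0604 and 0.0792 by limma).

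The highest mean level of any locus belonged to XLOC_010977 (chromosome 1, 76416083 to 76417839, 1 transcript), which was expressed in all libraries. Its FPKM was 349, 1379 and 332 in calves 1 to 3 and 282, 432 and 261 in the bulls. Calf 2 stood far above the others and the remaining libraries overlapped, and the log2 fold change of -0.77 (SE 0.62, adjusted p = 0.328 by limma) was not called. GMNC, its nearest Ensembl gene at 29820 bases, a regulator of cells with motile cilia, was called higher in bulls (2.14) with at most 0.153 in calves and 2.54 to 6.20 in bulls. XLOC_256489 on chromosome X (17000709 to 17020204) was also among the 5 highest. Calf 1 and calf 2 were at 22.7 and 22.4, calf 3 at 0.558 and the bulls at 228, 457 and 354. The log2 fold change was 5.13 (SE 1.10, adjusted p = 0.00876 by limma), and 3.83 without calf 3. It lies between USP26, a testis gene for a ubiquitin protease, and GPC4, where RefSeq holds 1 further gene, the protein-coding LOC783362.

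**Figure D3:**
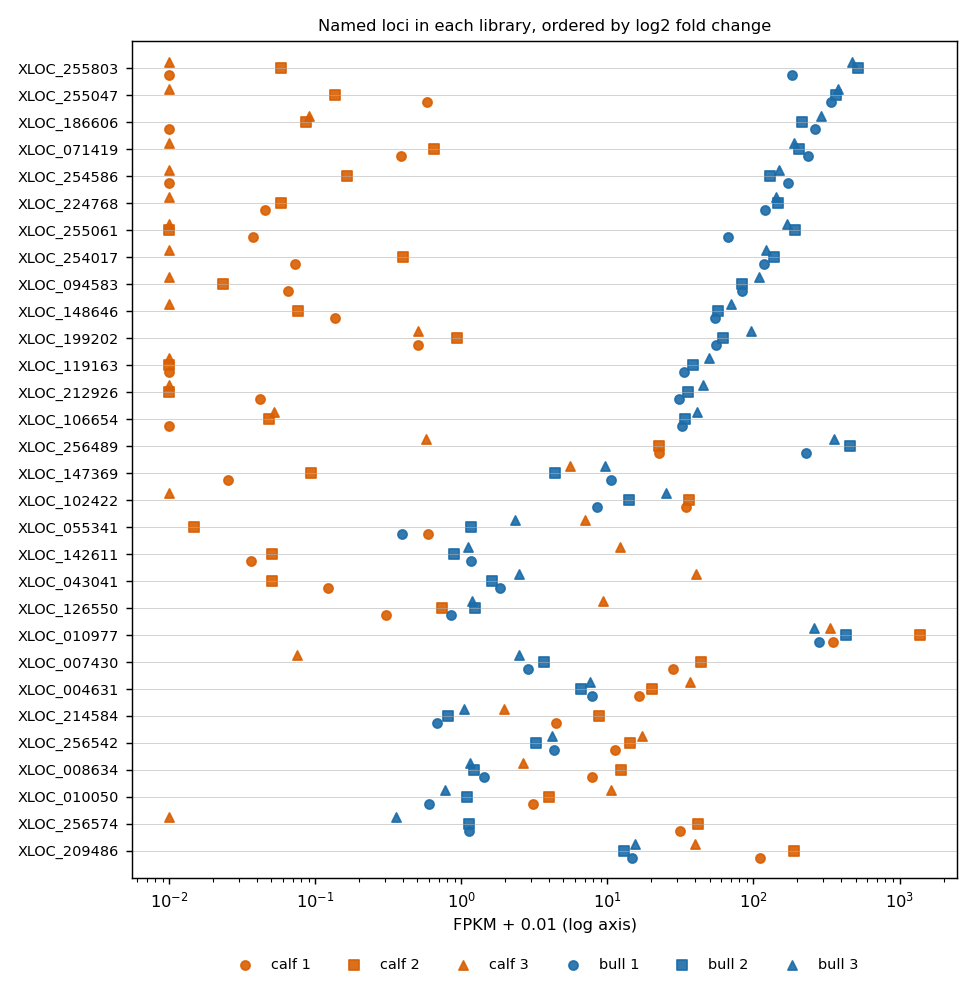
FPKM of the 30 named loci (rows, ordered by log2 fold change) in each library, on a log axis after adding 0.01, so that points at the left edge are listed at 0. Calves are orange, bulls are blue, and the marker shape gives the animal's number. In the upper rows the bulls lie far to the right of the calves, and in several lower rows calf 3 (orange triangles) stands apart from calf 1 and calf 2.

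The library labelled calf 3 differed from the other calves at the loci too. Of those tested, the largest excess of calf 3 over the mean of calf 1 and calf 2 was at XLOC_043041 (chromosome 12, 40251733 to 40533724), with 0.113, 0.0403 and 40.5 in the calves and 1.83, 1.60 and 2.48 in the bulls. Its nearest Ensembl gene, the neural protocadherin PCDH9, was at 1.29, 1.09 and 244 in the calves and at most 0.343 in the bulls. With all libraries the log2 fold change of the locus was -0.30 (adjusted p = 0.872 by limma), and without calf 3 it was called higher in bulls (1.45, adjusted p = 0.000346). XLOC_142611, 3541 bases from TMEM200C, was at 0.0262, 0.0401 and 12.2 in the calves and 0.881 to 1.15 in the bulls. XLOC_147369 on chromosome 25, 319703 bases from SHISA9, a gene of glutamate receptor complexes, was at 0.0153, 0.0836 and 5.53 in the calves and 10.5, 4.34 and 9.56 in the bulls. It was not called with all libraries (2.17, adjusted p = 0.0586 by limma) and was called higher in bulls without calf 3 (3.05, adjusted p = 0.000355). XLOC_126550 and XLOC_055341 had 9.26 and 7.04 in calf 3 against at most 0.729 in calf 1 and calf 2 and at most 2.31 in bulls. The brain markers move with these values, and their part in them was not tested.

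The 3 loci lowest in calf 3 were expressed in calf 1 and calf 2. XLOC_256574 (chromosome X, 20138021 to 20156385) was at 31.5, 41.9 and 0 in the calves and 1.11, 1.12 and 0.347 in the bulls. XLOC_007430 (chromosome 1, 613624 to 620949) was at 28.0, 44.0 and 0.0650 against 2.84, 3.69 and 2.47. Neither was called with all libraries (adjusted p = 0.173 and 0.403 by limma), and both were called lower in bulls without calf 3, with log2 fold changes of -4.36 and -3.19. XLOC_102422, which lies between MSTN, the gene of the muscle growth inhibitor myostatin, and PMS1, a mismatch repair gene, was at 34.4, 36.3 and 0 in the calves and 8.48, 14.0 and 25.1 in the bulls. Its log2 fold change was 0.50 (adjusted p = 0.792 by limma) with all libraries and -1.23 (adjusted p = 0.0288) without calf 3.

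The rule did not use distance, and the loci lay at all distances from annotated genes. On chromosomes or scaffolds that hold an Ensembl gene were 14181 loci, with a median distance of 36508 bases from edge to edge and quartiles of 9482 and 120315. Within 1 kb of an Ensembl gene lay 1026 loci, at 1 to 5 kb 1392, at 5 to 50 kb 5620 and beyond 50 kb 6143. Those called higher in bulls numbered 130 (12.7%), 117 (8.41%), 647 (11.5%) and 615 of 6143 in these classes. For Ensembl genes, by distance to their nearest other Ensembl gene, the shares were 20.8%, 17.8%, 13.2% and 9.46%. All these shares also follow the filter on FPKM. It was passed by 172 (16.8%), 149 (10.7%), 736 (13.1%) and 664 (10.8%) of the loci in these classes. Of the Ensembl genes, 71.6%, 62.0%, 50.3% and 38.0% passed it. At the edge of the rule, XLOC_123014 lay 1 base from a 5S ribosomal RNA gene and had an FPKM between 0.0391 and 1.49, and XLOC_012428 lay 2 bases from SLITRK3 and was above 0 only in calf 3 (0.328). Just outside it, XLOC_198931 overlapped an Ensembl gene by 7 bases, with at most 0.00213 in calves and 4.89, 3.45 and 5.35 in the bulls.

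The nearest gene of the loci called higher was compared by distance, with no test of the difference between classes. Of the 103 loci called higher within 1 kb of a tested Ensembl gene, 50 (48.5%) had that gene called higher as well and 3 (2.91%) had it called lower. The shares called higher and lower were 22.0% and 14.6% over 82 loci at 1 to 5 kb, 27.0% (88 loci, with 39 lower) over 326 at 5 to 50 kb, and 24.3% and 11.2% over 276 beyond 50 kb. When Ensembl genes called higher were paired with their nearest other Ensembl gene in the same way, the neighbour was higher in 33.8%, 31.7%, 30.3% and 26.4%. Across pairs with both members tested, the correlation of the log2 fold changes was 0.19 within 1 kb (139 pairs), 0.19 at 1 to 5 kb (105), 0.07 at 5 to 50 kb (375) and -0.05 beyond (303). For pairs of Ensembl genes it was 0.18, 0.11, 0.09 and 0.03. These values describe pairs that share the same 6 libraries, and the filter on FPKM removed most loci that are not high in bulls. The tables give no strand, so that a transcript continuing from the neighbour and a separate transcript cannot be told apart here.

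**Figure D4:**
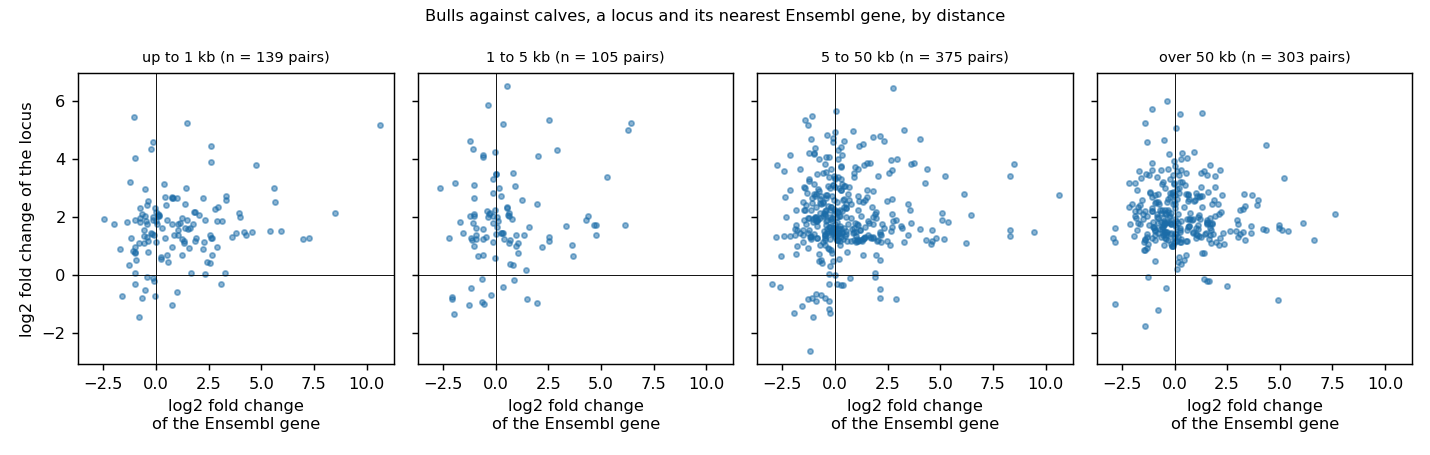
Log2 fold change of bulls against calves for a locus (vertical axis) and for its nearest Ensembl gene (horizontal axis), with 1 point per pair in which both were tested and 1 panel per class of distance. The points lie mainly above 0 on the vertical axis in every panel and on both sides of 0 on the horizontal axis, with a correlation of 0.19 within 1 kb and -0.05 beyond 50 kb.

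In the pairs within 5 kb chosen by fold change, the neighbour was called higher, not called or not tested. XLOC_106654 (chromosome 2, 104861166 to 104872082) lies 3 bases from TNP1, the gene of a transition protein that replaces histones in spermatids. It had an FPKM of 0, 0.0380 and 0.0417 in the calves and 32.6, 33.7 and 41.0 in the bulls (log2 fold change 5.16, adjusted p = 6.46e-06 by limma), while TNP1 had at most 0.395 in calves and 1552, 2229 and 1828 in bulls. The locus and the gene rose together, the locus at a far lower level per length.

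XLOC_199202 lies 92 bases from RPL3, a ribosomal protein gene, on chromosome 5 from 110752167 to 110776848. It was at 0.493, 0.919 and 0.491 in the calves and 55.3, 62.1 and 96.1 in the bulls, with a log2 fold change of 5.43 (adjusted p = 2.09e-05 by limma). RPL3 was at 900.5, 922 and 128 in the calves and 253, 236 and 204 in the bulls and was not called (-1.04), so that against calf 1 and calf 2 the bulls were higher at the locus and lower at its neighbour. XLOC_212926 (chromosome 6, 55676296 to 55680662), 181 bases from DTHD1, was at 0.0316, 0 and 0 in the calves and 30.9, 35.5 and 45.4 in the bulls. DTHD1 was called higher too (1.48), with 0.0174, 0.0326 and 1.83 in the calves and a lower level than the locus, 2.40, 2.93 and 3.81, in the bulls.

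Among the 4 loci chosen at 1 to 5 kb, XLOC_224768 next to TRIM7 was described above. XLOC_119163 (chromosome 20, 22973004 to 22981587) was listed at 0 in every calf and had 33.4, 38.4 and 49.5 in the bulls, and ANKRD55, at 4961 bases, was called higher with 0.494 to 1.70 in calves and 8.55 to 11.6 in bulls. XLOC_094583 (chromosome 18, 56845979 to 56849198), 3721 bases from the acid phosphatase gene ACP4, was at 0.0547, 0.0131 and 0 in the calves and 83.4, 83.0 and 109 in the bulls. XLOC_148646 (chromosome 25, 38550295 to 38551787), 4506 bases from RBAK, was at 0.127, 0.0658 and 0 in the calves and 54.7, 57.4 and 70.3 in the bulls. Neither ACP4 (0.57) nor RBAK (-0.36) was called, whereas their loci had log2 fold changes of 6.49 and 5.85 (adjusted p = 4.03e-06 and 4.98e-06 by limma).

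The loci were spread over all autosomes and chromosome X. Relative to Ensembl genes they ranged from 25.1 per 100 genes on chromosome 19 to 113 per 100 on chromosome 12. The share of loci called higher in bulls lay between 8.27% and 13.8% on single autosomes and was 10.5% over all autosomes and 10.7% on chromosome X. For Ensembl genes it was 15.2% on autosomes and 8.04% on X, the chromosome that is silenced in male meiosis. Of the loci that passed the filter, 61.9% were called higher on X and 88.6% on autosomes, and those that passed were 17.2% of the loci on X and 11.8% of those on autosomes. On X, 8.47% of the 366 loci reached an FPKM of 1 in both calf 1 and calf 2, against 1.23% of the 13611 autosomal loci. Unplaced scaffolds held 563 loci, more than their 337 Ensembl genes, and 106 of these loci (18.8%) were called higher and 1 lower, against 7.72% higher of the Ensembl genes there. The filter was passed by 24.2% of the unplaced loci, and 77.9% of those that passed were called higher. An FPKM of 1 in every bull was reached by 22.7% of the unplaced loci and 11.4% of the autosomal ones. Among Ensembl genes it was reached by 18.7% on unplaced scaffolds and 49.8% on autosomes, so that the shares called also follow detection. The differences between chromosomes were not tested.

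**Figure D5:**
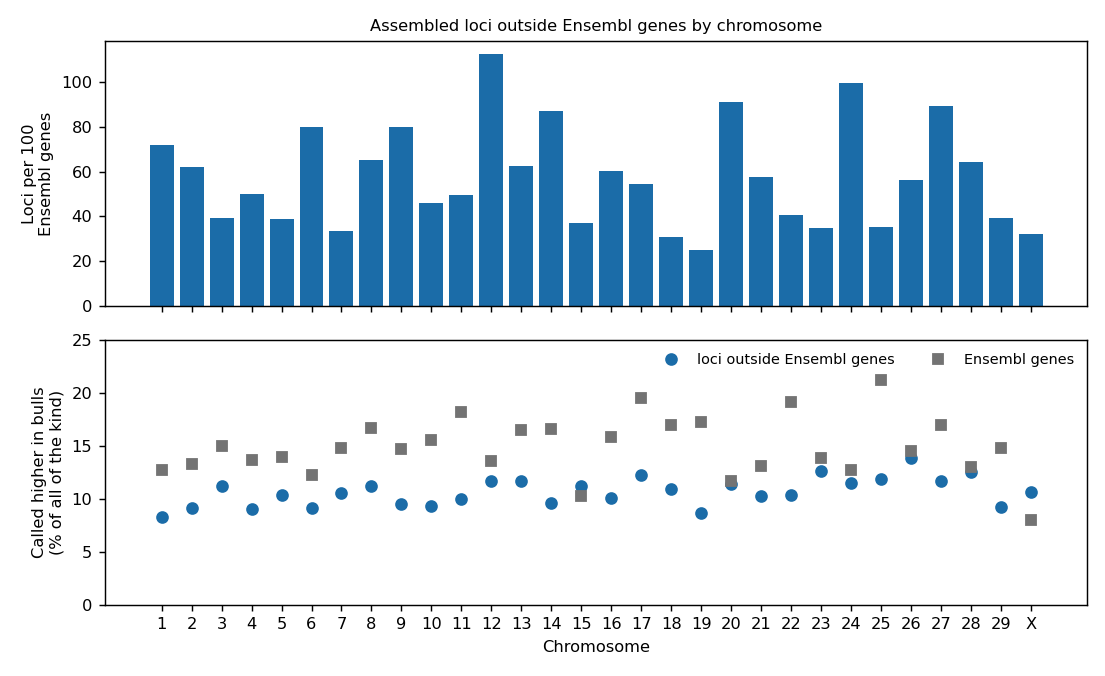
Upper panel, number of loci outside Ensembl genes per 100 Ensembl genes on each chromosome. Lower panel, share of all loci (blue circles) and of all Ensembl genes (grey squares) called higher in bulls on each chromosome (%), in which X has 10.7% for loci and 8.04% for Ensembl genes.

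Neighbouring loci were also grouped. When loci no more than 50000 bases apart were joined, 7296 groups resulted, of which 3851 held a single locus and 467 held 5 or more, with 3062 loci between them. The largest, on chromosome 11 (99605853 to 100005495), held 18 loci around IER5L, an immediate early response gene. All but 1 of its loci stayed under the filter, and the exception, XLOC_036255, was at 0 in every calf and at 4.53, 3.53 and 2.82 in the bulls. The second, on chromosome 16 (6957644 to 7391699), held 17 loci and no Ensembl gene. Its 4 tested loci were all called higher in bulls, as were 86.8% of all loci tested. The most abundant, XLOC_075596, was at 0.0535, 0.0581 and 0 in the calves and 4.31, 4.36 and 2.53 in the bulls (log2 fold change 2.16, adjusted p = 0.000225 by limma), and XLOC_071816 was at 0.0630, 0.0155 and 0 against 5.54, 2.88 and 2.39. No calf reached an FPKM of 1 at any of the 17 loci, and over all loci each calf reached it at only 2.06% to 3.30%.

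The features of the loci were last set side by side by the outcome of the comparison, with no test. For those called higher the median span was 13363 bases and the mean number of transcripts 4.74. The 12732 loci not tested, which were mostly low in every library, had 6177 bases and 1.49. Loci tested but not called had 17565 bases and 4.43, and those called lower had 33468 bases and 4.56. Longer spans and more transcripts were thus found in all classes of loci that passed the filter. A name beginning with LINC was given to at least 1 transcript of 89.4% of the loci called higher, near the 88.8% of all loci. The share was 89.1% of the loci not tested, 61.1% of the 18 called lower and 68.6% of the 220 not called. Around 13676 loci both flanking genes could be found by symbol in RefSeq, and for 8788 of these (64.3%) RefSeq holds a lncRNA gene in the same interval that has no symbol in the table, while for 2418 (17.7%) it holds no further gene. For the 1431 loci called higher that could be placed in this way, these numbers were 1104 and 154. A RefSeq gene in the interval need not overlap the locus, and such overlap was not examined.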

How the data were processed

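Total RNA of 6 samples labelled as testis was sequenced after removal of ribosomal RNA. The authors deposited FPKM values per gene and per transcript for each library. The methods name the build UMD3.1.1, whereas the scaffold names and gene positions of the table are those of an ARS-UCD assembly. Coordinates are printed as deposited. By the methods, reads were mapped with TopHat2 and transcripts assembled with StringTie, and the tool that gave the FPKM values of genes is not stated. No library was pooled. The relative library size behind the FPKM scale was taken from the commonest ratio of FPKM values under 0.3 between libraries, over features with 1 transcript. Of 15 pairs of libraries, 14 gave the ratio found through bull 2 within 0.02 on the log2 scale and 1 was off by a factor of 2. Its order over libraries is not that of the clean read totals of the study, and the reason was not tested. Few values lay at that ratio, so that counts were not recovered and no counting interval is given.

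Loci were selected by overlap of spans with Python 3.11.15 and pandas 2.3.3. Features that reached 1 FPKM in 3 or more of the 6 libraries were fitted with limma 3.58.1 in R 4.3.3 (lmFit, then eBayes with a trend) on log2(FPKM + 1), bulls against calves, with Benjamini-Hochberg adjustment over all of them. Fold changes on this scale understate those of low loci. Counts and shares per library were compared by exact permutation. The fit was tested on simulated data. Alternatives were other pseudocounts, filters and scalings, a replicate block and leaving out each library.

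Loci were named by rule: the 8 largest increases and 6 largest decreases among loci called without overlap, the 5 highest means, the 5 highest and 3 lowest in calf 3, the 2 groups with most loci, and 4 in each of the distance classes up to 1 kb and 1 to 5 kb from a gene with a symbol. The last had been planned by orientation, but the tables give no strand. The loci and lists were chosen with earlier results of these data known.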

Additional observations from a re-analysis of the deposited data

How the results depend on the processing

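The number of loci called higher in bulls (1570 of 1808 tested) stayed within 1.5 times under every alternative, but the number tested did not. It ran from 1299 of 1808 with quantile normalization to 2091 of 4138 with an FPKM of 1 required in 1 library. Over all features the counts were 6474 of 18115, 4683 of 18115 and 7177 of 23954. With no filter, 2030 of 14540 loci (14.0%) were called higher, against 15.6% of all features, so that the share of loci called was not stable. The number called lower (18) was 35 with a pseudocount of 0.1, 7 with libraries rescaled to the same total, 40 with quantile normalization and 9 to 29 when a library was left out. Over all features, 1741 were called lower, with 1080 after rescaling and 3917 after quantile normalization, where 4683 were called higher. The median log2 fold change of the loci (1.85) was 4.41 with the pseudocount of 0.1, 0.24 with no filter, 1.06 with 1 library required and 1.48 with quantile normalization. That of all features (0.43) was 0.56, 0.12, 0.63 after rescaling and -0.13 after quantile normalization, and 0.42 to 0.47 when a library was left out. The loci with all bulls under all calves numbered 560, and 1222 without calf 3, a setting chosen after seeing the data. With the pseudocount of 0.1, XLOC_043041, XLOC_055341 and XLOC_142611 reversed to 0.94, 0.51 and 0.92, and with quantile normalization XLOC_102422 reversed to -0.055. Leaving out a library gave -1.21 to 1.45 at XLOC_043041, -0.73 to 0.77 at XLOC_055341, -0.86 to 0.98 at XLOC_142611, -1.02 to 0.47 at XLOC_126550 and -1.23 to 1.38 at XLOC_102422, where the value of the other sign came without calf 3 and, at XLOC_055341, also without bull 1 (0.19). The causes were not tested. With a replicate block, 1569 loci were called higher and 16 lower, and XLOC_147369 (2.17, adjusted p = 0.0418, limma) became a call, as it did without calf 3 (3.05, adjusted p = 0.000355). Deviations of libraries with the same number correlated by 0.0246 to 0.0341, so that the numbers were not taken to pair the animals. With no read counts, what depth limits was not measured. The motif and orientation descriptions were not run.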
